A study of Mirounga angustirostris with 8 samples.

Results

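The genes PFKFB1, PFKFB2, PFKFB3, PFKFB4, FBP1, FBP2 and TIGAR set the level of fructose bisphosphates in the cell. They were taken by symbol from a table of reads per gene, and all 7 were present among 24341 named genes. Of these, 6 passed a filter on low counts and were tested with 14314 genes in all, whereas FBP1 did not pass. The data are from skeletal muscle (longissimus dorsi) of wild adult female northern elephant seals (NES), with 4 libraries from biopsies taken at most 5 days after the seals came ashore (pre-molt, early molt in the sample labels) and 4 taken late in the molt, about a month later (post-molt, labelled late molt, at 34 days on average over the study's animals). The pre-molt libraries were from seals 5572, 5842, 6762 and C497, and the post-molt libraries from seals 4448, 5572, 9678 and X410. Molting NES stay on land, fast and move little, so molt, fasting, inactivity and days ashore cannot be told apart in this comparison, which asks what differs in muscle after about a month of them. Seal 5572 is the only one with a library at both times here, and the groups were compared unpaired.

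Glycolysis and gluconeogenesis meet at the step between fructose 6-phosphate and fructose 1,6-bisphosphate. Phosphofructokinase-1 adds the phosphate, and fructose 1,6-bisphosphatase takes it off. Fructose 2,6-bisphosphate, a regulator and not an intermediate, activates the first enzyme and inhibits the second. The PFKFB proteins carry a kinase that makes this regulator and a phosphatase that breaks it down, in a balance that differs between the isoforms, and TIGAR also lowers it. FBP2 is the muscle fructose 1,6-bisphosphatase and FBP1 the form of liver and kidney. Transcript levels give neither the activity nor the phosphorylation state of these enzymes.

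Libraries held 30770425 to 61220136 reads on named genes, and counting error is small for all members except FBP1. Levels are given in CPM (reads of a gene scaled to a common library total) after trimmed mean of M-values (TMM) scaling, as mean ± SD of 4 libraries. Log2 fold changes compare post-molt with pre-molt libraries, so a negative value is a lower post-molt level. They and their standard errors (SE, after ±) come from the quasi-likelihood test of edgeR with Benjamini-Hochberg adjustment over all genes tested. Reads are not divided by transcript length here, so a level of one gene is not compared with that of another. The 8 listed muscle fiber markers present in the table, among them ACTA1, CKM, MB and TTN, summed to 173197 to 297258 CPM per library. TTN alone ranged from 1151 CPM (seal 5572) to 28785 CPM (5842) pre-molt and from 1629 CPM (5572) to 25265 CPM (9678) post-molt. The cause of this spread was not tested. Of these 8 markers, edgeR called 0, and 6 had a negative fold change (median -0.41). At an unadjusted p under 0.05 there were 4 (2 in each direction), beside 11.4% of all genes tested (5.20% higher, 6.22% lower). The lowest p was that of MYOT, a Z-disc protein gene (1.43 ± 0.32, adjusted p = 0.0737), which DESeq2 called higher (8.44e-04) together with the myoglobin gene MB (edgeR 0.67, DESeq2 adjusted p = 0.0281), while it called the skeletal actin gene ACTA1 lower (edgeR -0.93, DESeq2 0.00406). In whole biopsies, fewer cells of a type and less RNA per cell cannot be told apart. Nothing in the labels says how the seals beyond 5572 are related, and p-values measure the spread between these libraries.

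PFKFB2 and PFKFB3 stood apart from the rest of the family and differed in opposite directions between pre-molt and post-molt muscle. PFKFB2 had about 4 times its pre-molt mean after the molt (fold of means 3.90), and PFKFB3 was lower by a factor of 3.04. For PFKFB1, PFKFB4 and TIGAR the pre-molt and post-molt means differed by less than the larger of the group SDs, and FBP2 was lower post-molt by a factor of 2.17. In edgeR 0 of the 6 tested genes passed an adjusted p of 0.05, where 0.349% of all genes tested did (0.217% higher post-molt and 0.133% lower). At an unadjusted p under 0.05 there were 3 of the 6 (1 higher, 2 lower), against 11.4% of all genes tested (5.20% higher and 6.22% lower). DESeq2 called 3 (PFKFB2 higher, PFKFB3 and FBP2 lower) where it called 6.44% of genes given an adjusted p (3.31% higher and 3.13% lower). Limma-voom called 2 (PFKFB2 higher and PFKFB3 lower), against 0.657% (0.384% and 0.272%). The groups did not overlap for PFKFB2, PFKFB3 and FBP2, 3 of the 6, as for 9.15% of all genes tested (4.04% higher and 5.11% lower).

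**Figure D1:**
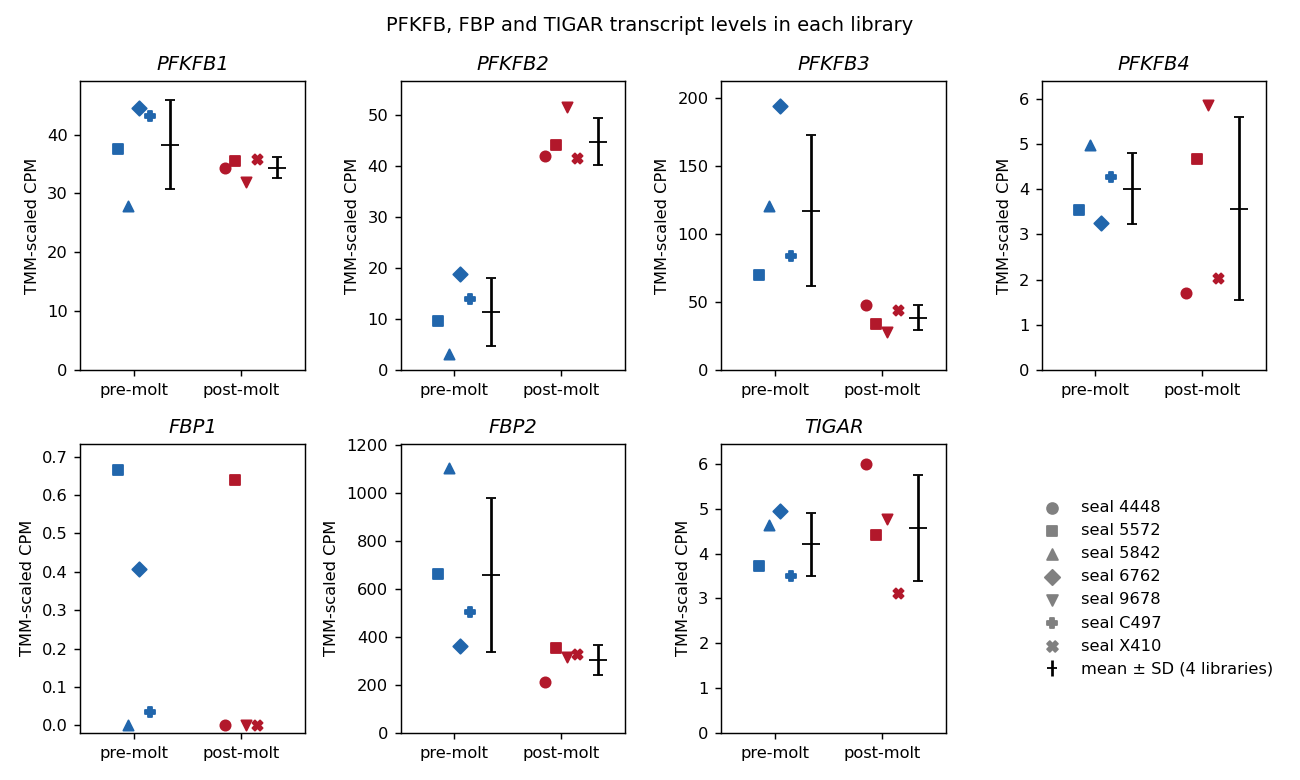
Level of each gene in TMM-scaled CPM (linear axes, 1 panel per gene) in 4 pre-molt (blue) and 4 post-molt (red) libraries, with 1 symbol per seal and bars for mean ± SD where a mean was taken. All post-molt libraries lie above all pre-molt libraries for PFKFB2 and below them for PFKFB3 and FBP2, and reads of FBP1 are found at both times in seal 5572.

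PFKFB2 encodes the isoform first described in heart, whose C-terminal part is phosphorylated by insulin-dependent and energy-sensing kinases. Pre-molt levels of PFKFB2 were 9.72 CPM in seal 5572, 3.26 in 5842, 18.9 in 6762 and 14.0 in C497. Post-molt levels were 41.9 CPM in seal 4448, 44.0 in 5572, 51.5 in 9678 and 41.6 in X410. The lowest post-molt library thus lay well above the highest pre-molt library, and the post-molt libraries were close to each other (coefficient of variation 10.3%) while the pre-molt libraries were spread (57.8%). The group means were 11.5 ± 6.63 and 44.8 ± 4.63 CPM (log2 fold change 1.96 ± 0.40, 95% interval 1.09 to 2.83, edgeR adjusted p = 0.0560), which ranked PFKFB2 87 by p among the genes tested. DESeq2 gave 1.98 with an adjusted p of 2.10e-04. The edgeR adjusted p passed without pre-molt 5842 (0.0338, fold change 1.68) and without pre-molt 6762 (0.0432, fold change 2.31), the lowest and the highest of the pre-molt libraries.

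PFKFB3 encodes the inducible isoform, whose kinase activity far exceeds its phosphatase activity, and is a target of HIF-1. Its pre-molt levels were 69.8 CPM in seal 5572, 121 in 5842, 194 in 6762 and 83.7 in C497. Its post-molt levels were 48.0 CPM in seal 4448, 33.7 in 5572, 28.0 in 9678 and 44.1 in X410. Every post-molt library was below every pre-molt library, and pre-molt 6762 was the highest of the 8. The log2 fold change was -1.60 ± 0.31 (95% interval -2.28 to -0.93, edgeR adjusted p = 0.0531). Without pre-molt 6762 it was -1.24 (adjusted p = 0.0739), and robust estimation of the spread in edgeR gave an adjusted p of 0.0427.

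PFKFB1, known from liver and skeletal muscle, ranged from 27.8 to 44.5 CPM pre-molt and from 31.9 to 35.8 CPM post-molt. The post-molt range fell inside the pre-molt range, and the 95% interval of the fold change, -0.58 to 0.27, leaves out a doubling and a halving (log2 fold change -0.15 ± 0.20, edgeR adjusted p = 0.857). PFKFB4, the isoform first described in testis and also induced by low oxygen, was low at both times, at 3.54, 4.98, 3.25 and 4.28 CPM pre-molt in seals 5572, 5842, 6762 and C497. Post-molt it was at 1.70 CPM in seal 4448, 4.66 in 5572, 5.87 in 9678 and 2.04 in X410. The post-molt libraries formed a pair below all pre-molt libraries and a pair near or above the highest of them, and the interval of the fold change was wide, -1.32 to 0.97 (log2 fold change -0.17 ± 0.53, adjusted p = 0.952). The low pair came from the deeper and the high pair from the shallower post-molt libraries (61220136 and 47511754 reads against 35465829 and 30770425), and the part of depth in this split was not tested.

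The makeup of the PFKFB reads in a library does not depend on the scaling between libraries. PFKFB3 held 57.7 to 77.0% of the summed PFKFB counts in pre-molt libraries (66.7 ± 10.4%) and 23.9 to 38.1% in post-molt libraries (31.6 ± 6.53%). The share of PFKFB2 was 2.08 to 9.66% pre-molt (6.76 ± 3.28%) and 33.3 to 43.9% post-molt (37.1 ± 4.93%). Neither share overlapped between the groups, and the Wilson 95% interval of a share in 1 library was at most ± 1.61 percentage points, for counting error only. For 1 read of PFKFB3 there were 0.139 reads of PFKFB2 in pre-molt 5572, 0.0270 in 5842, 0.0974 in 6762 and 0.168 in C497. Post-molt there were 0.874 in seal 4448, 1.31 in 5572, 1.84 in 9678 and 0.943 in X410. The ratio was thus under 1 read of PFKFB2 per 10 of PFKFB3 in pre-molt 5842 and 6762 and near or above equal numbers in all post-molt libraries. The shares of the other two genes overlapped between the groups, with PFKFB1 at 17.1 to 31.1% of the counts pre-molt and 27.2 to 30.2% post-molt, and PFKFB4 at 1.25 to 3.17% and 1.35 to 5.00%. The summed PFKFB level was 117 to 126 CPM post-molt and 121 to 261 CPM pre-molt, so that the groups overlapped in the sum. These shares describe the chosen genes and were not tested. They are shares of reads and not of transcripts, so the number of PFKFB2 reads per PFKFB3 read compares libraries, not the abundance of one transcript with the other.

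**Figure D2:**
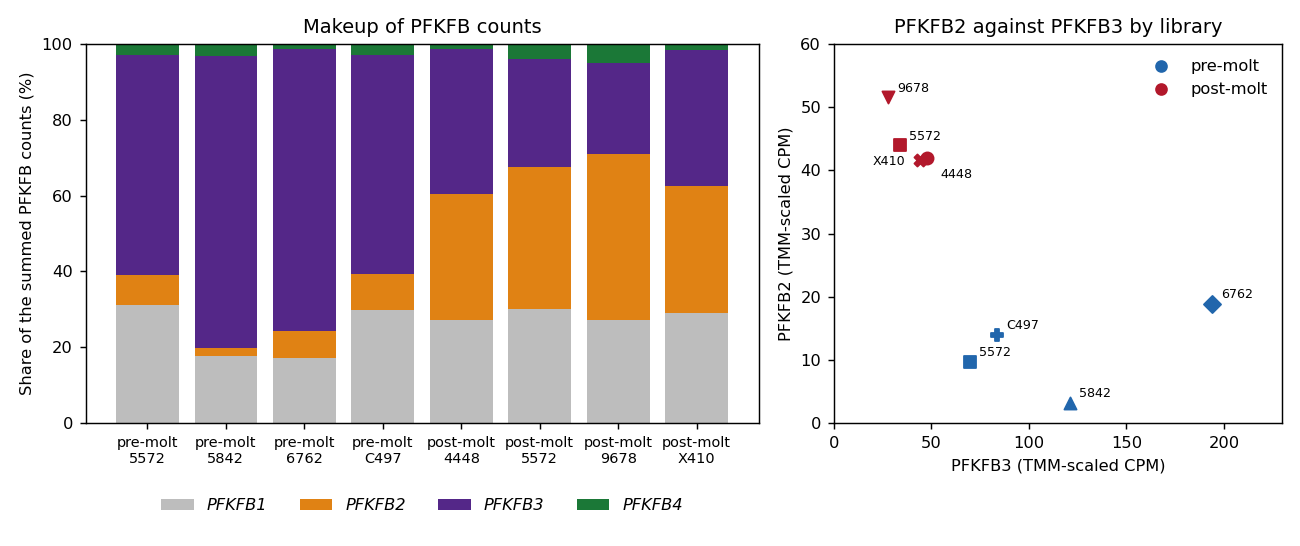
Left, share of the summed PFKFB counts (%) that each PFKFB gene held in each library. Right, level of PFKFB2 against PFKFB3 in TMM-scaled CPM, 1 point per library with its seal. PFKFB3 holds 57.7 to 77.0% of the counts pre-molt and 23.9 to 38.1% post-molt, and the post-molt libraries sit apart at high PFKFB2 and low PFKFB3.

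FBP2, which in muscle removes a phosphate from fructose 1,6-bisphosphate, was at 661 CPM in pre-molt 5572, 1102 in 5842, 362 in 6762 and 504 in C497. Post-molt it was at 211 CPM in seal 4448, 355 in 5572, 318 in 9678 and 330.5 in X410. The groups did not overlap, but the lowest pre-molt and the highest post-molt library were nearly at the same level, and pre-molt 5842 lay far above the others. The log2 fold change was -1.12 ± 0.31 (95% interval -1.80 to -0.43, edgeR adjusted p = 0.148), and -0.72 without pre-molt 5842 (adjusted p = 0.336). DESeq2 called the gene lower (adjusted p = 0.0161). Relative to PFKM, the main phosphofructokinase-1 gene of muscle, there were 0.459 to 0.942 reads of FBP2 per read of PFKM pre-molt and 0.254 to 0.376 post-molt.

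FBP1 was represented by 75 reads in the 8 libraries together. Pre-molt there were 28 reads in seal 5572, 0 in 5842, 22 in 6762 and 2 in C497. Post-molt there were 23 reads in seal 5572 and 0 in each of seals 4448, 9678 and X410. Seal 5572 thus had similar levels at both times, 0.666 CPM pre-molt and 0.638 CPM post-molt, and the groups overlapped. A count of 0 allows up to 3 reads, which is 0.0940 CPM in pre-molt 5842, 0.0430 in post-molt 4448, 0.0968 in 9678 and 0.0594 in X410. In the RefSeq annotation of a NES assembly (mMirAng1.0.hap1), in which all 7 genes were found by symbol, FBP1 and FBP2 are neighbours. Markers of hepatocytes, in which FBP1 is abundant, were scarce at both times. The 5 of 6 listed that are in the table summed to 7.30 to 13.7 CPM pre-molt and 9.28 to 24.2 CPM post-molt, with TTR, APOB and FGB at 0 in every library and ALB at 2.34 to 7.98 CPM. For APOA1 the pre-molt range was 2.82 to 7.77 CPM and the post-molt range 6.95 to 16.3 CPM, which DESeq2 called higher (adjusted p = 0.0232) and edgeR did not (0.162). Macrophage markers, of another cell type with FBP1, summed to 18.9 to 80.7 CPM pre-molt and 24.3 to 46.9 CPM post-molt over 7 of 9 listed genes. They were highest in pre-molt 5842, which had 0 reads of FBP1, and edgeR called 0 of the 7, with 0 at an unadjusted p under 0.05 and 0 in DESeq2. The lowest p among them was that of CD68 (2.15 ± 1.08, adjusted p = 0.504). The part of hepatocytes or macrophages in the FBP1 reads was not tested.

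TIGAR, a target of p53 whose product degrades fructose 2,6-bisphosphate and other phosphoesters, had few reads, and its groups overlapped. It was at 3.73, 4.64, 4.95 and 3.51 CPM pre-molt in seals 5572, 5842, 6762 and C497, and at 6.0, 4.41, 4.77 and 3.13 CPM post-molt in seals 4448, 5572, 9678 and X410. Post-molt 4448 was the highest and X410 the lowest of all libraries, with the pre-molt libraries between them. The log2 fold change was 0.12 ± 0.41, with a wide 95% interval of -0.77 to 1.02 (edgeR adjusted p = 0.956).

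Seal 5572 gives the only view within 1 animal, with no replicate. PFKFB2 was higher post-molt than pre-molt in this seal by 2.18 on the log2 scale, while PFKFB3 differed by -1.05 and FBP2 by -0.90. PFKFB1 (-0.08), FBP1 (-0.06), TIGAR (0.24) and PFKFB4 (0.40) differed by less. The number of PFKFB2 reads per PFKFB3 read was 9.37 times as high post-molt, while the summed PFKFB level was 121 CPM pre-molt and 118 CPM post-molt. Without both libraries of this seal the log2 fold changes were 1.91 for PFKFB2, -1.72 for PFKFB3 and -1.21 for FBP2 (edgeR adjusted p = 0.254, 0.187 and 0.380).

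Among the enzymes these regulators act on, edgeR called 0 of the 3 phosphofructokinase-1 genes, with 0 at an unadjusted p under 0.05 and 0 in DESeq2. PFKM, the muscle subunit, was at 1025 ± 164 CPM pre-molt and its log2 fold change was -0.10 ± 0.20 (95% interval -0.53 to 0.33, edgeR adjusted p = 0.918). PFKL, the liver subunit, gave -0.28 ± 0.21 (adjusted p = 0.710) and PFKP, the platelet subunit, -0.21 ± 0.43 (adjusted p = 0.920). In the list of glycolytic enzymes other than phosphofructokinase, 2 of 16 tested genes fell and 0 rose, beside 0.133% and 0.217% of all genes tested. At an unadjusted p under 0.05, 4 were lower and 0 higher, beside 6.22% and 5.20%. A negative fold change was found for 13, and the median was -0.49, beside -0.04 over all genes tested. ALDOA, the aldolase that cleaves fructose 1,6-bisphosphate, fell, with 25409 to 41620 CPM pre-molt and 8833 to 14056 CPM post-molt (-1.59 ± 0.25, adjusted p = 0.0262). PGAM2, which encodes phosphoglycerate mutase in muscle, fell too, with 1672 to 4964 CPM pre-molt and 529 to 899.7 CPM post-molt (-2.14 ± 0.35, adjusted p = 0.0288). DESeq2 also called the muscle enolase ENO3 lower (-1.16 in both tools, edgeR adjusted p = 0.186). Both edgeR calls in this list ended when pre-molt 5572 or any 1 of the post-molt libraries was left out.

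**Figure D3:**
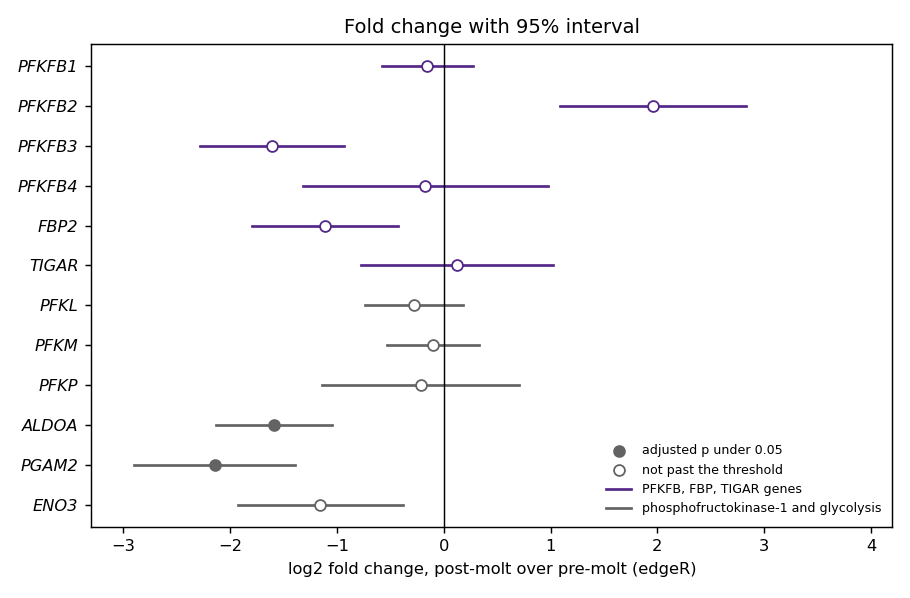
Log2 fold change, post-molt over pre-molt, with its 95% interval from edgeR for the 6 tested PFKFB, FBP and TIGAR genes (purple) and for phosphofructokinase-1 genes and 3 glycolytic enzymes (grey). Filled points passed an adjusted p of 0.05. ALDOA and PGAM2 are filled, and the intervals of PFKFB2, PFKFB3 and FBP2 leave out 0.

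In gluconeogenesis, edgeR called 0 of 8 tested enzymes other than the fructose bisphosphatases, with 0 at an unadjusted p under 0.05 and 0 in DESeq2. All 8 fold changes were negative (median -0.30). PCK1, the cytosolic phosphoenolpyruvate carboxykinase, had the smallest p (-3.37 ± 1.68, adjusted p = 0.490) and was at 0.295 to 7.24 CPM pre-molt and 0 to 0.972 CPM post-molt. In the pentose phosphate pathway, toward which TIGAR is known to divert glucose, edgeR called 0 of 8 enzymes and DESeq2 gave 0 calls. At an unadjusted p under 0.05, 1 was lower, beside 6.22% of all genes tested. That gene was PGLS, the lactonase of the pathway (-0.99 ± 0.38, adjusted p = 0.315), and the median of the list was -0.25.

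Of 21 genes for kinases, ubiquitin ligase parts and a phosphatase that act on PFKFB proteins, edgeR called 0, and the median was 0.06. At an unadjusted p under 0.05 there were 3 (2 higher, 1 lower), beside 11.4% of all genes tested (5.20% higher, 6.22% lower). DESeq2 called 1 higher, beside 3.31% of genes given an adjusted p. This was AKT2, the Akt kinase of insulin signaling in muscle (edgeR log2 fold change 0.63 ± 0.22, adjusted p = 0.262, DESeq2 0.0469). AKT2 was at 141 to 289 CPM pre-molt and 292 to 364 CPM post-molt. Of 16 transcription factors known to act on these genes, edgeR called 0, and the median was 0.28. At an unadjusted p under 0.05 there were 2 (1 in each direction), beside the same 11.4% of all genes tested. DESeq2 called 1 of them higher, beside the same 3.31%. It was MEF2D, a muscle transcription factor (edgeR 0.50 ± 0.17, adjusted p = 0.224, DESeq2 0.0112).

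HIF-1 targets other than PFKFB3 and PFKFB4 did not share 1 direction. Of 21 tested, 10 had a positive and 11 a negative fold change (median -0.01), and edgeR called 0. At an unadjusted p under 0.05, 2 were higher and 4 lower, beside 5.20% and 6.22% of all genes tested. DESeq2 called 1 higher and 2 lower, beside 3.31% and 3.13% of genes given an adjusted p. SLC16A3, the lactate exporter of glycolytic cells, was at 59.6 to 348 CPM pre-molt and at most 34.3 CPM post-molt (-2.69 ± 0.57, edgeR adjusted p = 0.0629, DESeq2 0.00549). DESeq2 also called HMOX1, which degrades heme, lower (edgeR -1.56 ± 0.48, adjusted p = 0.189, DESeq2 0.0190) and BHLHE40, a repressor tied to the circadian clock, higher (edgeR 0.70 ± 0.21, adjusted p = 0.177, DESeq2 0.0220). PFKFB3, like SLC16A3 and HMOX1, was lower post-molt, whereas BHLHE40 was higher. PFKFB3 passed in DESeq2 (adjusted p = 1.55e-04) and not in edgeR (0.0531). PFKFB4, the other HIF-1 target of its family, did not pass in either tool.

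Markers of fiber types and of other cells in the biopsy were summed beside PFKFB3 and FBP2. The 7 fast-fiber markers in the table summed to 7376 to 21966 CPM pre-molt and 4267 to 6261 CPM post-molt, and 3 of them were lower at an unadjusted p under 0.05 with 0 called by edgeR or DESeq2. The lowest p among them was that of TNNC2, the fast troponin C (-2.03 ± 0.72, edgeR adjusted p = 0.263). The sum did not overlap between the groups, but this rests on 1 gene, ACTN3, the fast-fiber alpha-actinin, which held 7639 of 8309 CPM in pre-molt 5572 and 7009 of 7376 CPM in pre-molt 6762. Without ACTN3, left out after its values were seen, the groups overlapped fully. The other 6 markers summed to 670 CPM in pre-molt 5572, 15728 in 5842, 367 in 6762 and 8868 in C497, and to 442 to 1810 CPM post-molt, so that 2 pre-molt libraries were high and 2 were within or below the post-molt range. Pre-molt 5842 had the highest fast-fiber sum and the highest FBP2, whereas pre-molt 6762, with the highest PFKFB3, had the lowest fast-fiber sum of its group, with and without ACTN3. Slow-fiber markers (8 genes) summed to 44668 to 96541 CPM pre-molt and 54511 to 77561 CPM post-molt, with ATP2A2, the slow-fiber calcium pump, called higher (1.09 ± 0.20, adjusted p = 0.0419). Fibroblast markers (8 genes) summed to 426 to 1397 CPM pre-molt and 173 to 450.1 CPM post-molt, again highest in 5842, and 5 were lower at an unadjusted p under 0.05, PI16 with the smallest (-2.04 ± 0.45, adjusted p = 0.0679). Endothelial markers (10 genes), of cells that use PFKFB3, summed to 473 to 622 CPM pre-molt and 436 to 491 CPM post-molt, and 1 was lower at an unadjusted p under 0.05, KDR (-1.45 ± 0.34, adjusted p = 0.0807). Adipocyte markers (8 genes) summed to 765 to 1001 CPM pre-molt and 466 to 946 CPM post-molt, with 1 lower at an unadjusted p under 0.05, the lipid droplet gene CIDEC (-2.29 ± 0.45, adjusted p = 0.0542). DESeq2 called KDR, CIDEC and 3 of the fibroblast markers lower (PI16, LUM and COL1A2). For satellite cells (5 genes) the sums were 66.9 to 89.2 and 76.0 to 85.8 CPM, with VCAM1 at -0.80 ± 0.51 (adjusted p = 0.632), and for erythroid cells (4 of 7 genes) at most 3.44 CPM, with SLC4A1 at 0 in every library and ALAS2 at 1.24 ± 2.12 (adjusted p = 0.904). The part of these markers in the values of PFKFB3 and FBP2 was not tested.

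The genes nearest in profile differed from member to member. Likeness was the root mean square difference between log2 CPM profiles over the 8 libraries, each centred on its own mean, where the typical gene was 1.44 from PFKFB2. The nearest named genes to PFKFB2 were PARM1 (0.28), NFIL3 (0.34) and YOD1 (0.40). PARM1, a membrane protein gene, was itself called higher (2.16, adjusted p = 0.0288). NFIL3, a basic leucine zipper repressor, and YOD1, a deubiquitinase gene, were not (1.49 and 1.43, adjusted p = 0.143 and 0.352). YOD1 lies beside PFKFB2 in the human genome but was not listed next to it in the NES annotation. YOD1 had 18 to 140 reads pre-molt and 135 to 264 post-molt. Nearest to PFKFB3 were TTLL11 (0.28), FAM83H (0.42) and GNAO1 (0.42), with a typical distance of 1.06. Nearest to FBP2 were EXOSC4, a subunit of the RNA exosome (0.12), and the ribosomal protein genes RPL18 (0.12) and RPS15 (0.14), with a typical distance of 0.91. PFKFB1 lay nearest to ADCY2 and MKLN1, PFKFB4 to PRSS46, RSPH1 and NPR2, and TIGAR to DDX46, SETD1A and TBCEL, all at 0.053 to 0.24. Among the members themselves PFKFB2 and PFKFB3 were the farthest apart (2.03) and PFKFB1 and TIGAR the nearest (0.39). These distances are descriptions over 8 libraries, and genes with little spread lie near each other by construction.

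**Figure D4:**
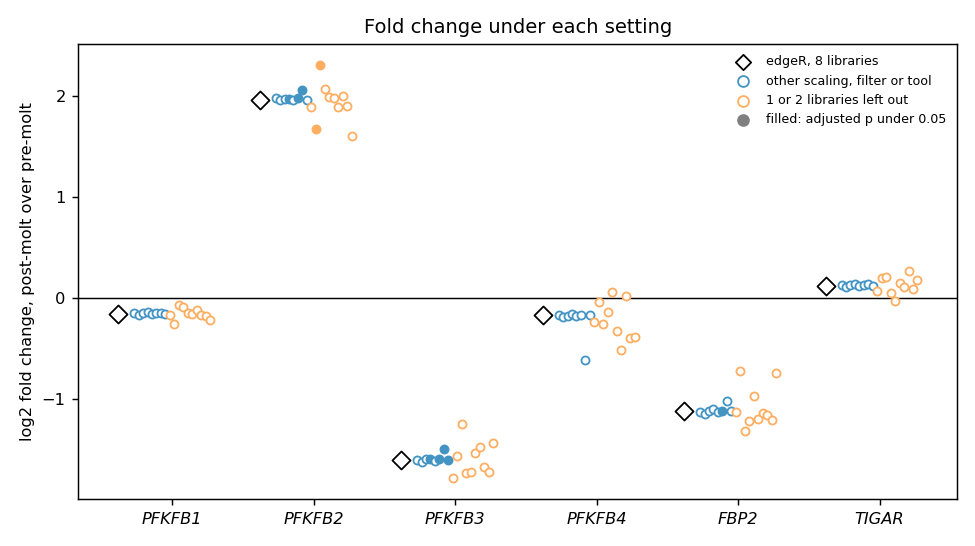
Log2 fold change, post-molt over pre-molt, of the 6 tested genes with edgeR on 8 libraries (black diamonds), under another scaling, filter or tool (blue) and with 1 or 2 libraries left out (orange), filled where the adjusted p was under 0.05. PFKFB2 stays between 1.61 and 2.31, PFKFB3 between -1.78 and -1.24 and FBP2 between -1.31 and -0.72, while PFKFB4 and TIGAR lie on both sides of 0.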

How the data were processed

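RNA was sequenced from 8 biopsies, 4 per time. According to the study's methods, the authors mapped reads with STAR onto the genome of a related species, the Hawaiian monk seal, and its GeneCounts option gave the deposited table of raw counts per gene. Per the labels, bcl2fastq 2.20, R 3.4.3 and DESeq2 1.18.1 were also used. The labels and the methods name different library kits, and the strand setting is not given in the sources used here. In the NES annotation PFKFB2 overlaps C4BPB and PFKFB1 overlaps APEX2 (0 to 97 and 926 to 1341 reads per library in this table). PFKFB3 overlaps an unnamed locus there (LOC135364505). The reads were counted on the annotation of the monk seal, so whether reads of overlapping genes can be told apart was not tested. Input RNA was of low quality in part of the samples, and the authors kept the 4 libraries per time that had most unique reads.

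Of 24349 entries, 8 without a gene name (at most 0.0187% of counts) were left out. Genes were kept by filterByExpr (minimum count 10, minimum total 15), scaled by TMM and fitted in edgeR 4.0.16 (R 4.3.3), with DESeq2 1.42.0 and limma-voom 3.58.1 as alternatives. The SE is the fold change divided by the root of F, and intervals use the t distribution at the fit's degrees of freedom. Log2 CPM used a prior count of 2. In 28 pairs of libraries, chi-square over degrees of freedom was at least 99.0, so none is a copy. The scripts were tested on simulated data. The members and gene lists were chosen with earlier results of these data known. Named genes were all members, the phosphofructokinase-1 genes, the called or otherwise lowest-p gene of each list, markers at 0, and the 3 nearest profiles of each tested member, of which 1 is not reported here. DESeq2 calls in the lists, the overlapping genes, ACTN3, CKM, TTN and ALB were named after their values were seen. Sequences and transcript lengths were not used here.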

Additional observations from a re-analysis of the deposited data

Results flagged for a closer look

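FBP1 in post-molt seal 5572, at 0.638 CPM (23 reads), stood far from the other 3 post-molt libraries, all at 0. The highest of 4 values is marked when its gap to the next exceeds 0.829 of the range, and 14 groups (7 genes at 2 times) were examined. The rate of about 1 of 20 groups marked by chance alone does not apply here. With the other 3 libraries at 0, any value above 0 is marked. The pre-molt library of the same seal had 0.666 CPM (28 reads), and pre-molt 6762 had 0.406 CPM (22 reads). The other 5 libraries had at most 2 reads.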

How the results depend on the processing

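The direction of PFKFB1, PFKFB2, PFKFB3 and FBP2 was kept under all 19 alternatives each, and the side of the threshold by PFKFB1 under all 19. PFKFB2 passed with no filter on low counts (1.98), in DESeq2 (1.98), in limma-voom (2.06) and, at an unadjusted p, in an exact permutation test (difference 2.21). PFKFB3 passed in the same 4 (-1.59, -1.60, -1.49 and -1.52) and in robust edgeR (-1.60), and FBP2 in DESeq2 (-1.12) and the permutation test (-1.02). That test is two-sided with a smallest p of 0.0286, which all 3 genes reached. Any gene without overlap between the groups, 9.15% of all genes tested, reaches this p, so the test restates the lack of overlap. With 1 library left out in turn, fold changes were 1.68 to 2.31 for PFKFB2 (adjusted p 0.0338 to 0.133, past the threshold in 2 of 8 fits), -1.78 to -1.24 for PFKFB3 and -1.31 to -0.72 for FBP2 (0 of 8 fits each), -0.52 to 0.065 for PFKFB4 (above 0 without post-molt 4448, 0.065, or X410, 0.025) and -0.032 to 0.27 for TIGAR (below 0 without post-molt 4448, -0.032). Without pre-molt 5842 and post-molt 9678, whose reads mapped uniquely least often in their groups, they were 1.61, -1.43 and -0.74 for PFKFB2, PFKFB3 and FBP2 (adjusted p = 0.0716, 0.228 and 0.458). The members called numbered 2 with no filter, 3 in DESeq2, 2 in limma-voom, 1 in robust edgeR and 0 to 1 with 1 library left out. Over all genes, 225 were called with no filter, 652 in DESeq2, 94 in limma-voom, 9 to 48 with 1 library left out, 5 without seal 5572, and 0 without 5842 and 9678 (1330 at an unadjusted p under 0.05). Glycolytic enzymes called went from 2 to between 0 and 2 with 1 library left out and to 0 without seal 5572 and without 5842 and 9678. HIF-1 targets called were 1 with no filter, 3 in DESeq2 and 1 in limma-voom, and DESeq2 called 1 of the kinases and 1 of the transcription factors. The causes were not tested. No paired analysis was possible because 1 seal alone has libraries at both times here. FBP1, with 75 reads in all, did not pass the filter on low counts. Post-molt 4448, the deepest library, had 0 of these reads, while the less deep post-molt 5572 had 23. With 4 libraries per group PFKFB4 and TIGAR could differ by up to the bounds of their intervals without passing.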

Other observations

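Among the 4 post-molt libraries PFKFB3 and PFKFB4 ran in opposite order, PFKFB3 with library depth and PFKFB4 against it. Depth fell from seal 4448 (61220136 reads) over X410 (47511754) and 5572 (35465829) to 9678 (30770425). PFKFB3 was highest in seals 4448 (48.0 CPM) and X410 (44.1 CPM) and PFKFB4 lowest there (1.70 and 2.04 CPM), while seal 9678 had the lowest PFKFB3 (28.0 CPM) and the highest PFKFB4 (5.87 CPM). Unscaled reads of PFKFB4 ranged from 103 to 255 over the 8 libraries. Among the pre-molt libraries PFKFB2 and FBP2 ran in opposite order, with seal 5842 lowest in PFKFB2 (3.26 CPM) and highest in FBP2 (1102 CPM) and seal 6762 highest in PFKFB2 (18.9 CPM) and lowest in FBP2 (362 CPM). With 4 libraries per group these orders were not tested.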
